A study of Owenia fusiformis with 26 samples.

Results

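The gastrula of the annelid *Owenia fusiformis*, sampled at 9 hours post fertilisation (hpf), was compared with the coeloblastula at 5 hpf, the hollow ball of cells that precedes it. The comparison rests on 4 RNA-seq libraries, 2 of the gastrula and 2 of the coeloblastula, out of 26 samples in the series. The other 20 RNA-seq libraries, 2 at each stage, cover the oocyte, zygote, 2-cell, 4-cell and 8-cell stages, 3 and 4 hpf, and the elongation stage, early larva and mature larva at 13, 18 and 27 hpf. The expression columns of the 3 hpf libraries are named for 16 cells, a number no label gives, and were assigned to 3 hpf by elimination. The remaining 2 samples are ATAC-seq of the coeloblastula. The labels name no genotype, strain or drug treatment for any of the groups, all of which were reared in artificial sea water. The stages were chosen by label, and no measured value entered the choice. Each library pools whole embryos, so that a level summed over all cells was measured, and a change in the number of cells of a type and a change in RNA per cell cannot be told apart. The labels do not say whether the 2 libraries of a stage came from separate spawnings, and the p-values measure only the spread between such libraries.

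*O. fusiformis* cleaves spirally and assigns its body axes late, by signals between cells. At gastrulation, cells of the vegetal pole move inwards to form the gut, the mesoderm is set aside, and the remaining ectoderm is divided into apical, oral and posterior territories. In animals generally, this is the period when the zygotic genome has taken over from RNA stored in the egg, and when Wnt, BMP and Notch ligands and their antagonists, together with T-box, homeobox, fork head and basic helix-loop-helix transcription factors, set up territories. The apical organ, the hindgut, the chaetae and the muscles of the mitraria larva arise later from these territories.

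Expression was measured as the authors' normalised value per transcript, summed here by gene. It is not divided by transcript length, so that levels are compared between stages and not between genes. A value of about 1.04 to 1.19 corresponded to 1 read in the 4 libraries, whose depth was estimated from these steps at about 28200000 to 32600000 reads, within the range of all 24 RNA-seq libraries (22400000 to 37200000 reads). Differences are given on the log2(value + 1) scale, which understates the change of genes at a few reads, and a gene was called when its limma p-value, adjusted by Benjamini-Hochberg over all 23934 genes tested, was under 0.05. An error after a log2 difference is its standard error (SE), and an error after a stage mean is the standard deviation (SD) of the 2 libraries. The SE and p-value of a gene draw on the spread between libraries at all 12 stages, and not only at the 2 compared. No library of the 4 stood apart from its partner in depth. Few identifiers carry a name: 582 have a name or a closest database protein in the study's tables, and such a protein is written as a hit (a FEZF2-hit gene). These tables list mostly genes whose expression changed after drug treatment of embryos, so they are not a random sample of the genome.

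The gastrula differed from the coeloblastula in 7053 genes, of which 4305 were higher and 2748 were lower in the gastrula. These were 29.5% of the genes tested, 18.0% being called higher and 11.5% lower. Rises were larger than falls. The median log2 difference was 2.96 over the genes called higher and -1.52 over those called lower, and 1740 genes were called with a rise of more than 10-fold on this scale against 95 with a fall of that size. Both libraries of one stage lay above both of the other for 7052 of the 7053 called genes, and for 62.4% of all genes tested. The share of calls that were rises depended on scaling. The median difference over all genes tested was 0.4, and with TMM rescaling of the libraries, a trimmed mean of log ratios, it shifted by -0.27 to 0.13, which gave 3410 higher and 3646 lower genes, or 48.3% rises against 61.0%. With TMM 895 of the higher calls were lost and no called gene changed direction. When only the 4 libraries entered the fit, 2754 genes were called higher and 1500 lower.

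**Figure D1:**
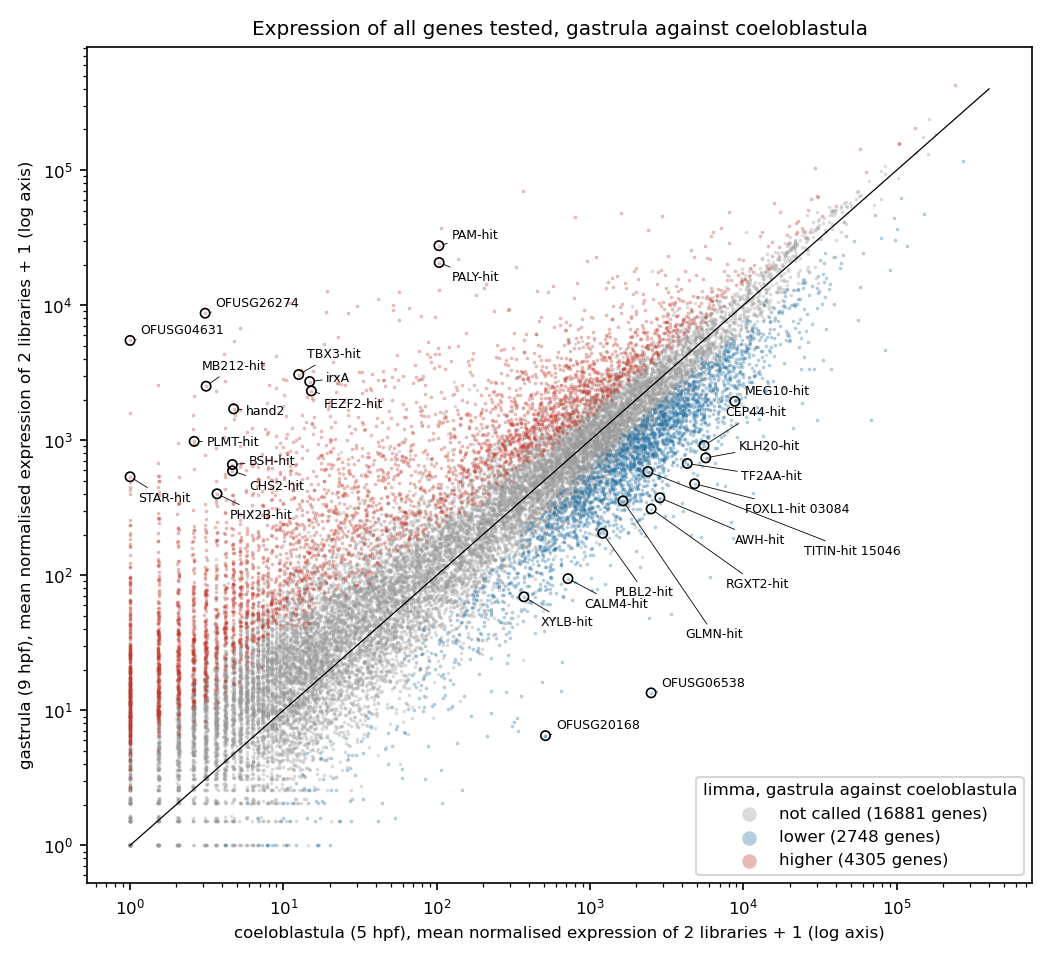
Mean normalised expression + 1 of each of the 23934 genes tested in the 2 coeloblastula libraries (x axis) and the 2 gastrula libraries (y axis), both log axes, coloured by the limma call. Black circles mark the genes with the largest rises and falls, and points above the diagonal are higher in the gastrula. More of the rises than of the falls lie far from the diagonal.

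The genes called higher were more often scarce in the coeloblastula than the genes tested, and most had their highest mean after the gastrula. Both coeloblastula libraries were under 10 for 1599 of them (37.1%, against 19.7% of genes tested), and 359 were listed at 0 in both. The stage mean was highest at the gastrula for 1156 genes called higher (26.9%, against 14.7% of genes tested), and at elongation or later for 3107 (72.2%, against 48.7%). The mature larva mean was below the coeloblastula mean for 355 of the 4305 genes (8.25%). The genes called lower had the opposite course. Their mean was highest at one of the 7 stages from the oocyte to 4 hpf for 2357 genes (85.8%, against 31.5% of genes tested), and the oocyte mean was at or above the coeloblastula mean for 1688 (61.4%, against 51.2%). In 45 genes called lower both oocyte libraries were under 10, a share of 1.64% against 22.6% of genes tested. In these the highest mean was at 3 hpf for 10, at 4 hpf for 15, at the coeloblastula for 15 and at another stage for 5. Only 295 of the genes called lower (10.7%) had a mature larva mean at or above that of the coeloblastula. The stage means of the 2 compared stages chose these genes, so the courses are a description. The number of higher genes with their highest mean at the gastrula fell whichever library was left out, and so did the number called higher. In the fit of the 4 libraries alone, 732 of 2754 genes called higher had their highest mean there.

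**Figure D2:**
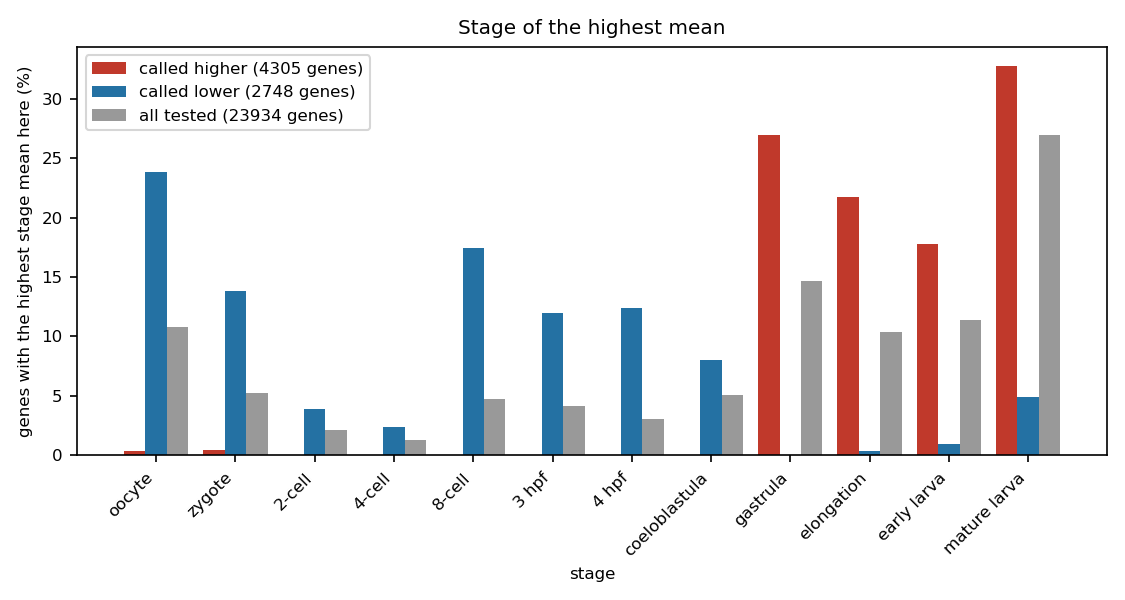
Share of genes (y axis, percent) whose mean of 2 libraries was highest at each of the 12 stages (x axis), for genes called higher in the gastrula, genes called lower and all genes tested. Genes called higher peak at the gastrula (26.9%) or later, and genes called lower peak mostly from the oocyte (23.8%) to 4 hpf (12.4%).

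The stages on either side, 4 hpf and elongation, gave a second difference from other libraries. It is not independent of the first, since both take their standard errors from the common fit, in which the spread at every stage enters. Between 4 hpf and elongation, 11628 genes were called (48.6%), 7515 of them higher at elongation (31.4%) and 4113 lower (17.2%). Of the genes called higher in the gastrula, 3949 (91.7%) were called higher at elongation than at 4 hpf and 3 lower, with a median log2 difference of 3.68 against 0.68 over all genes tested. Of the genes called lower, 2552 (92.9%) were lower at elongation and 16 higher, with a median of -2.01. The median over all genes moved to 0.34 with TMM.

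The gene with the largest rise, OFUSG04631, has no name or closest protein in the tables used here. It was listed at 0 in both coeloblastula libraries. It reached 7334 and 3625 in the gastrula libraries (adjusted p = 9.12e-09, from the spread at all 12 stages). Its mean was 39137 ± 9130.0 at elongation and 75308 ± 3939 in the early larva. The second, OFUSG26274, also unnamed, went from 4.17 and 0 to 12341 and 5098, a log2 difference of 11.77 ± 0.99 (adjusted p = 5.24e-07). It stayed near that level, with a mean of 9385 ± 2219 at elongation and 4071 in the mature larva. In both genes gastrula replicate 1 was the higher of the 2 gastrula libraries. Over all genes called higher, gastrula replicate 1 was above replicate 2 in 55.9% against 48.4% of genes tested.

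Among the genes with a name or closest protein, the 12 largest rises were those of 6 transcription factor genes, 4 enzyme genes, a *mab-21*-like gene and a Star-hit gene. The rule that picked them asked for gastrula libraries that lay above both coeloblastula libraries. Of the 581 such genes tested, 36.1% were called higher and 7.92% lower, so that rises were more common among them than in the whole table. Their median log2 difference was 1.39, against 0.4 over all genes tested. All gene lists below were drawn from these genes, so that the counts and medians of their members stand beside these values.

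The transcription factor genes were close to silent up to the coeloblastula. *hand2*, a basic helix-loop-helix factor of cardiac and limb mesoderm in vertebrates, had values of 2.08 and 5.39 in the coeloblastula libraries and 1655 and 1759 in the gastrula libraries, a log2 difference of 8.59 ± 0.63 (adjusted p = 1.77e-07). It was listed at 0 in the oocyte and at 4 hpf, had its highest mean at the gastrula (1707 ± 73.7) and a mean of 499 ± 84.5 in the mature larva. The TBX3-hit gene (OFUSG24119), a match to a T-box repressor, went from 15.7 and 7.51 to 3227 and 2899 (log2 difference 8.01 ± 0.90, adjusted p = 7.98e-06) and held 3179.8 ± 186 at elongation. The FEZF2-hit gene (OFUSG18814), a match to a zinc finger factor of the vertebrate forebrain, had values of 18.8 and 9.66 and then 2341 and 2293 (log2 difference 7.32 ± 0.72, adjusted p = 2.08e-06). Its gastrula libraries were nearly equal, and its mean was lower at each later stage, with 460.3 ± 20.9 in the mature larva.

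The other 3 transcription factor genes among the largest rises encode homeodomain proteins. *irxA*, of the Iroquois group that patterns ectoderm in flies and vertebrates, had values of 7.31 and 20.4 in the coeloblastula and 2939 and 2503 in the gastrula (log2 difference 7.67 ± 1.95, adjusted p = 0.00709), and was the only one of the 3 to reach its highest mean in the mature larva (4391 ± 137). Its 2 libraries differed at each earlier stage, as in the oocyte with 0 and 30.6. Without coeloblastula replicate 1 the call of *irxA* was lost (adjusted p = 0.0543), as it was with a pseudocount of 0.1 (adjusted p = 0.0969). The BSH-hit gene (OFUSG09074), a match to a brain-specific homeobox protein, went from 7.29 and 0 to 773 and 547 (log2 difference 7.82 ± 1.01, adjusted p = 2.97e-05) and peaked at elongation at 1736 ± 637. The PHX2B-hit gene (OFUSG02905), a match to a determinant of visceral neurons in vertebrates, rose from 0 and 5.38 to 566 and 235 (log2 difference 7.18 ± 0.90, adjusted p = 2.31e-05) and then stayed level, with means of 399 at elongation and 396 in the early larva.

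The 4 enzyme genes had their highest means after the gastrula, and a pair of them have neighbouring identifiers and related closest proteins. The PAM-hit gene (OFUSG09589) matches a phenylalanine aminomutase of yew and the PALY-hit gene (OFUSG09590) a phenylalanine ammonia-lyase of yeast, members of one family of enzymes that act on aromatic amino acids. The PALY-hit gene went from 171 and 34.3 to 22463 and 18919.8 (log2 difference 8.05 ± 0.93, adjusted p = 1.1e-05), and its mean was 71187 ± 1268 in the early larva. The PAM-hit gene went from 51.1 and 154 to 30827 and 24346 (log2 difference 8.25 ± 2.48, adjusted p = 0.0194) and reached 67717 ± 7858. Its call was lost with each of the 4 libraries left out in turn (adjusted p from 0.0547 to 0.106) and with a pseudocount of 0.1 (adjusted p = 0.0972). Replicate 2 was the higher at every stage up to the coeloblastula, as in the oocyte with 0 and 66. Between 4 hpf and elongation, with the standard error of the same fit, the PAM-hit gene rose by 11.29 ± 2.48 (SE) on the log2 scale (adjusted p = 0.00134) and the PALY-hit gene by 13.21 ± 0.93 (adjusted p = 1.92e-08).

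The PLMT-hit gene (OFUSG00087), a match to a yeast methyltransferase of phosphatidylcholine synthesis, went from 0 and 3.24 to 1015 and 944 (log2 difference 8.90 ± 1.00, adjusted p = 8.11e-06) and had its highest mean in the mature larva (2936 ± 577). The CHS2-hit gene (OFUSG16270), a match to the chitin synthase of the nematode pharynx, went from 7.31 and 0 to 759 and 424 (log2 difference 7.62 ± 1.23, adjusted p = 0.000222) and peaked at elongation (1342 ± 363). The last members are not enzymes. The MB212-hit gene (OFUSG02255), a match to a *mab-21*-like gene that acts in vertebrate eye development, rose from 1.04 and 3.22 to 3396 and 1626 (log2 difference 9.64 ± 1.01, adjusted p = 4.18e-06), the largest fitted rise among genes with a name or closest protein. The STAR-hit gene (OFUSG17455), a match to the fly membrane protein that helps export an epidermal growth factor ligand, was listed at 0 in both libraries of every stage up to the coeloblastula and at 713 and 357 in the gastrula (adjusted p = 2.5e-08). Its mean was 1472 ± 256 at elongation.

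**Figure D3:**
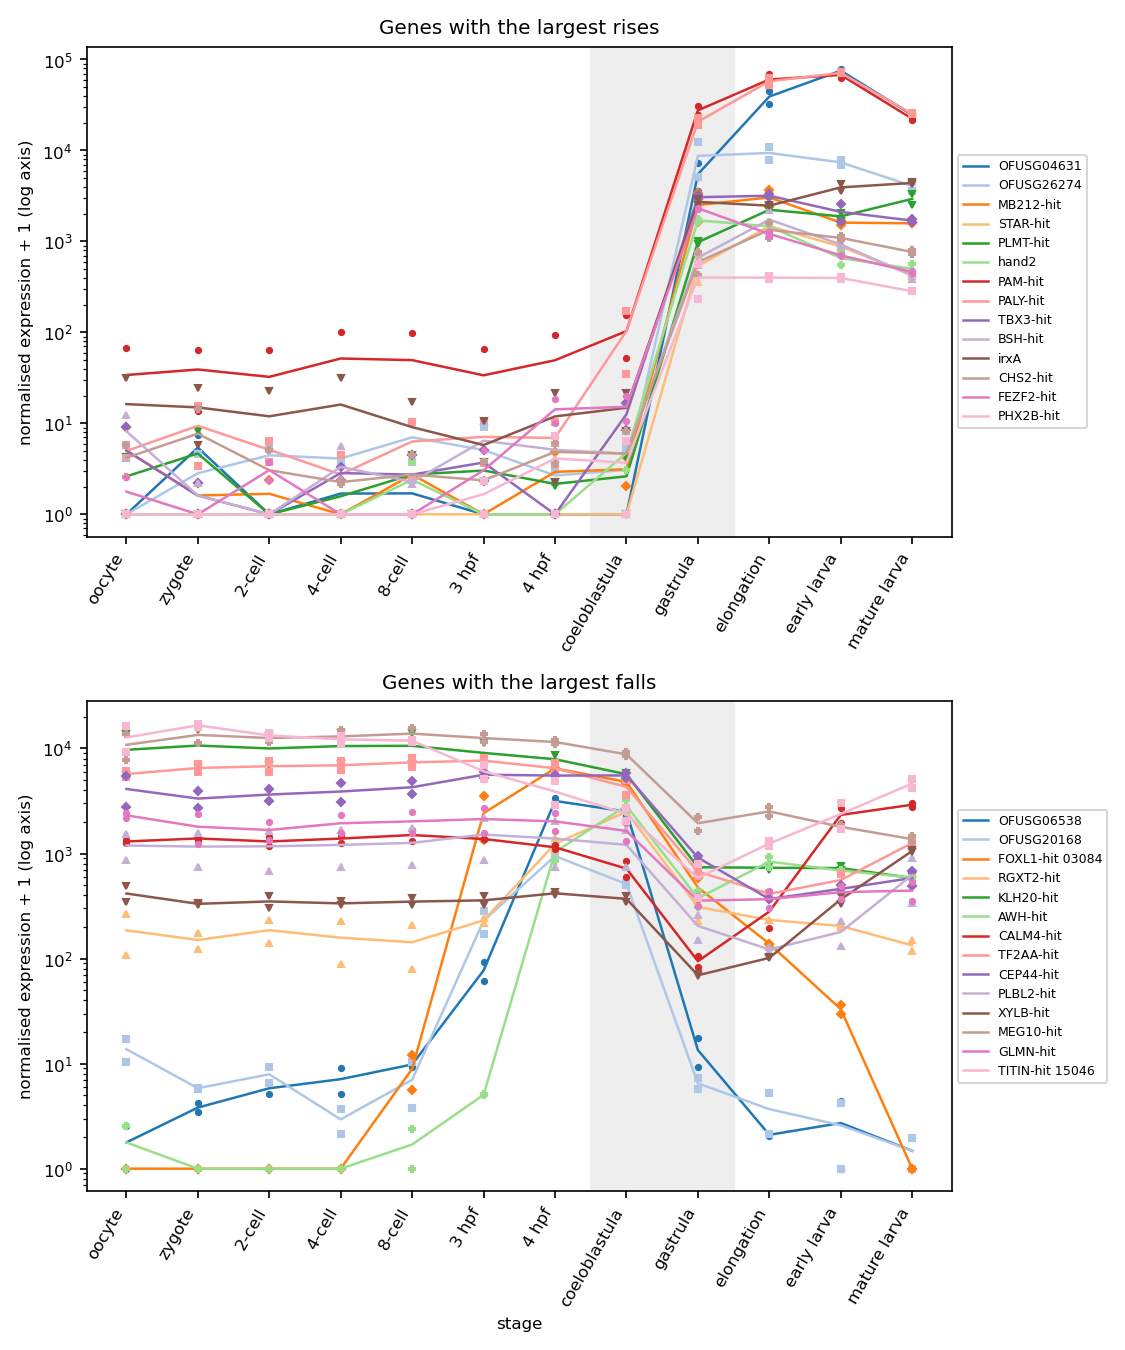
Normalised expression + 1 (y axis, log) over the 12 stages (x axis) of the genes with the largest rises (top) and the largest falls (bottom) between coeloblastula and gastrula (grey band). Lines join stage means and points are the 2 libraries of a stage. The risers are low up to the coeloblastula. The fallers are either present from the oocyte on or first appear at 3 to 4 hpf, and the RGXT2-hit gene, low in the oocyte, rises at 4 hpf.

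The 2 largest falls were of unnamed genes that had first appeared during cleavage. OFUSG06538 had values of 2298 and 2703 in the coeloblastula libraries and 8.25 and 16.7 in the gastrula libraries, a log2 difference of -7.61 ± 0.73 (adjusted p = 1.74e-06). Its mean was 0.778 ± 1.1 in the oocyte, 76 ± 22.6 at 3 hpf, 3166 ± 259.8 at 4 hpf and 1.1 ± 0.0601 at elongation. OFUSG20168 went from 526 and 496 to 4.73 and 6.26 (log2 difference -6.31 ± 0.76, adjusted p = 1.52e-05), with its highest mean, 946 ± 65.6, also at 4 hpf. A further identifier, OFUSG20173, holds the same values in every library, so that the reads of these copies cannot be told apart and the value of either is uncertain.

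The 12 largest falls among genes with a name or closest protein were smaller than the 12 largest rises, between -2.10 and -3.38 on the log2 scale. Only 2 of them had means under 10 in the oocyte, and both match transcription factors. The FOXL1-hit gene (OFUSG03084), a match to a fork head factor of gut mesenchyme in the mouse, went from 4671 and 4933 to 363 and 587 (log2 difference -3.38 ± 0.55, adjusted p = 0.000229). It was listed at 0 from the oocyte to the 4-cell stage, reached 6455 ± 78.1 at 4 hpf, and was listed at 0 again in the mature larva. The AWH-hit gene (OFUSG07660), a match to the fly LIM-homeodomain protein Arrowhead, had values of 3220.3 and 2483 in the coeloblastula and 440.1 and 308 in the gastrula (log2 difference -2.94 ± 0.55, adjusted p = 0.00078), and its call was lost with a pseudocount of 0.1 (adjusted p = 0.0882). Its mean peaked at the coeloblastula (2852 ± 521) and came back to 836 ± 128 at elongation. From 4 hpf to elongation its log2 difference was -0.29 ± 0.55 (adjusted p = 0.696).

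The other 10 were present in the oocyte. The TF2AA-hit gene (OFUSG25082), a match to a subunit of the general transcription factor TFIIA, went from 3633 and 4977 to 613 and 729.7 (log2 difference -2.67 ± 0.21, adjusted p = 3.78e-07), after a mean of 5700.4 ± 555 in the oocyte and a highest mean of 7657 ± 607 at 3 hpf. The CEP44-hit gene (OFUSG02685), a match to a centrosomal protein, went from 5841 and 5230.5 to 869 and 955 (log2 difference -2.60 ± 0.30, adjusted p = 1.11e-05). Both had lower means at elongation, 412 and 368. The KLH20-hit gene (OFUSG18649), a match to a substrate adaptor of a cullin ubiquitin ligase, fell from 5485 and 5881 to 663 and 815 (log2 difference -2.95 ± 0.47, adjusted p = 0.000209) and had a mean of 583 ± 29 in the mature larva. The GLMN-hit gene (OFUSG22911), a match to glomulin, an inhibitor of cullin ubiquitin ligases, fell from 1953 and 1322 to 396 and 313 (log2 difference -2.19 ± 0.39, adjusted p = 0.00055). The RGXT2-hit gene (OFUSG13117), a match to a plant xylosyltransferase, was low in the oocyte (185), peaked at the coeloblastula and fell from 2922 and 2081 to 228 and 389.9 (log2 difference -3.04 ± 0.53, adjusted p = 0.000417).

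Another 3 genes among these falls had mature larva means above their coeloblastula means. The CALM4-hit gene (OFUSG08143), a match to a calmodulin, the calcium-binding regulator, went from 839 and 594 to 82.5 and 104 (log2 difference -2.91 ± 0.28, adjusted p = 1.87e-06), with a mean of 1301 ± 68 in the oocyte and 2912 ± 197 in the mature larva. The XYLB-hit gene (OFUSG21297), a match to xylulose kinase, went from 346 and 392.2 to 69.8 and 66.8 (log2 difference -2.41 ± 0.26, adjusted p = 5e-06) and reached 1056 ± 33.9 in the mature larva. The TITIN-hit gene OFUSG15046, a match to the giant sarcomere protein of the fly, went from 2038 and 2723 to 380.1 and 790.0 (log2 difference -2.10 ± 0.36, adjusted p = 0.000324), after 12732 ± 4878 in the oocyte, and 4638 ± 668 in the mature larva. The other 2 had mature larva means below their coeloblastula means. The PLBL2-hit gene (OFUSG15689), a match to a lysosomal phospholipase, went from 1681 and 736 to 259 and 148 (log2 difference -2.50 ± 0.70, adjusted p = 0.0132). The PLBL2-hit call was lost without coeloblastula replicate 1 (adjusted p = 0.13) or gastrula replicate 2 (adjusted p = 0.0979). The MEG10-hit gene (OFUSG24445), a match to an engulfment receptor, fell from 9169 and 8407 to 1645 and 2236 (log2 difference -2.19 ± 0.25, adjusted p = 1.1e-05) and had a mean of 1368 ± 129 in the mature larva. Its most abundant transcript alone had a larger fall, with a log2 difference of -3.33, and was not called (adjusted p = 0.0581).

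Of 13 Wnt pathway genes, 8 were called higher, 1 lower and 4 were not called. The median log2 difference was 3.38, which is the value of the uncalled *wnt4*. Wnt proteins are secreted signals received by Frizzled receptors and LRP co-receptors, and they commonly mark the posterior and the blastopore. Without coeloblastula replicate 2, 5 were called higher. Among the ligands, *wntA* went from 104 and 66.5 to 3831 and 4819 (log2 difference 5.67 ± 0.76, adjusted p = 4.03e-05) and *wnt1* from 17.7 and 20.4 to 1029 and 1001 (5.67 ± 0.93, adjusted p = 0.000251). Both had their highest mean at the gastrula, 4325 ± 698 for *wntA* and 1015 ± 19.7 for *wnt1*. The WNT16-hit gene (OFUSG19094) rose from 33.3 and 19.4 to 509 and 619 (4.41 ± 1.17, adjusted p = 0.00917), a call lost without coeloblastula replicate 2 (adjusted p = 0.0674). The WNT6-hit gene (OFUSG16172) rose from 11.5 and 5.38 to 73.5 and 95 (3.25 ± 0.65, adjusted p = 0.00125) and was higher still at elongation, at 329 ± 43.1. With a pseudocount of 0.1 the WNT6-hit gene was not called (adjusted p = 0.0582). The remaining ligand gene, *wnt4*, was not called. Its coeloblastula libraries held 4.17 and 68.7 and its gastrula libraries 209 and 186 (log2 difference 3.38 ± 3.20, adjusted p = 0.478), and replicate 2 was far above replicate 1 at each earlier stage, with 3.11 and 222 in the oocyte.

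The 2 Frizzled receptor genes moved in opposite directions. The FZ10B-hit gene (OFUSG01215), abundant from the oocyte on, fell from 2062 and 2041 to 527 and 466 (log2 difference -2.05 ± 0.18, adjusted p = 6.95e-07). The FZD1-hit gene (OFUSG02319) rose from 2.08 and 0 to 65.9 and 56.5 (5.14 ± 0.85, adjusted p = 0.000259) and had a mean of 1293 ± 118 in the mature larva, when the FZ10B-hit gene stood at 1482 ± 198. Between 4 hpf and elongation the log2 difference was -2.01 ± 0.18 for the FZ10B-hit gene (adjusted p = 1.81e-07) and 6.39 ± 0.85 for the FZD1-hit gene (adjusted p = 1.3e-05). The LRP6-hit co-receptor gene (OFUSG25918) rose from 47 and 87.9 to 1246 and 1294 (4.28 ± 1.40, adjusted p = 0.0296), and its call was lost with each library left out in turn (adjusted p from 0.0735 to 0.14) and with a pseudocount of 0.1 (adjusted p = 0.171). Of 3 genes that match extracellular Wnt antagonists, 2 were called higher. The APCD1-hit gene (OFUSG05158), a match to a membrane inhibitor of Wnt signalling, went from 172 and 83.7 to 2093 and 2291 (4.18 ± 0.66, adjusted p = 0.00019). The SFRP5-hit gene (OFUSG08328), a match to a secreted Frizzled-related protein, went from 984 and 763 to 3024 and 3451 (1.90 ± 0.60, adjusted p = 0.0257). This call was lost under TMM scaling (adjusted p = 0.0592) and with each library left out (adjusted p from 0.0635 to 0.133). The NOTUM-hit gene (OFUSG01103), a match to an enzyme that inactivates Wnt ligands, had values of 51.1 and 59 and then 36.5 and 19.8 and was not called (log2 difference -1.001 ± 0.87, adjusted p = 0.434).

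**Figure D4:**
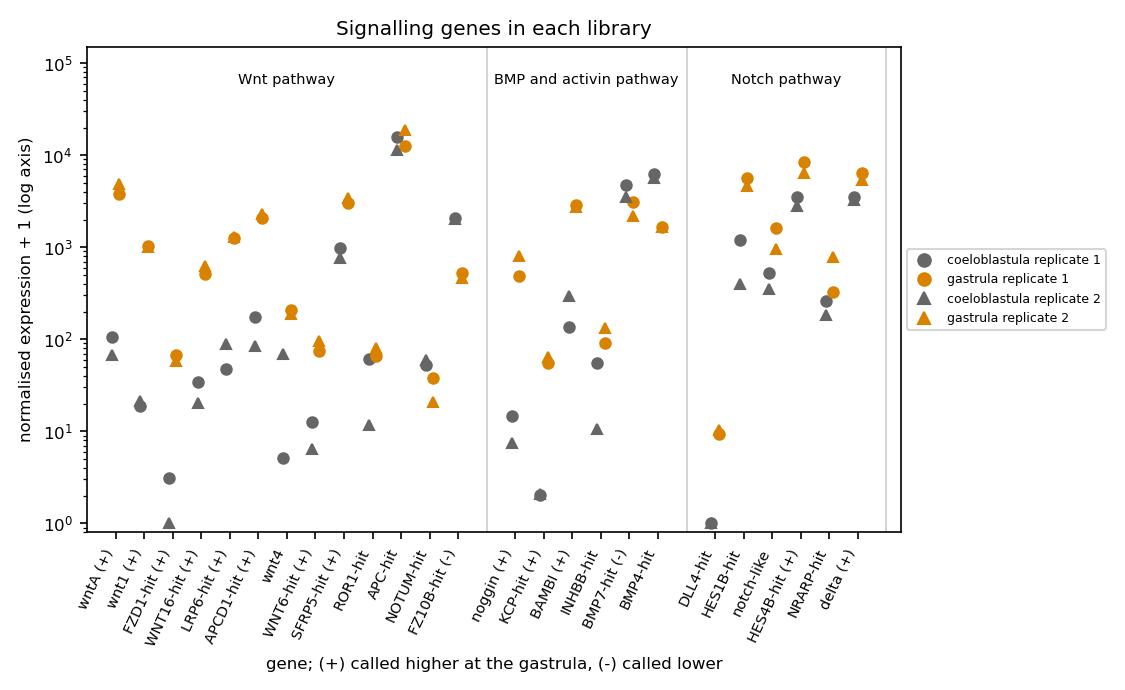
Normalised expression + 1 (y axis, log) of the Wnt, BMP and activin, and Notch pathway genes (x axis) in each of the 2 coeloblastula (grey) and 2 gastrula (orange) libraries, ordered by fold change within a pathway. The 8 Wnt genes called higher lie above their coeloblastula values in both libraries and the FZ10B-hit gene below. The BMP4-hit and BMP7-hit genes lie below their coeloblastula values, while *noggin*, *BAMBI*, the KCP-hit gene and the uncalled INHBB-hit gene lie above.

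In the BMP and activin pathway, 3 genes, *noggin*, *BAMBI* and the KCP-hit gene, were called higher. Of the ligand genes, 1 was called lower and 2 were not called. With a pseudocount of 0.1 only 1 gene, *BAMBI*, was called higher. BMP ligands pattern the dorsoventral axis, and their antagonists bind the ligand or the receptor. *noggin*, a secreted antagonist, went from 13.6 and 6.44 to 489 and 794 (log2 difference 5.90 ± 1.504, adjusted p = 0.00714), a call lost without coeloblastula replicate 2 (adjusted p = 0.0563) and with a pseudocount of 0.1 (adjusted p = 0.11). *BAMBI*, a decoy receptor, went from 135 and 297 to 2843 and 2754 (3.80 ± 0.32, adjusted p = 5.24e-07) after lying between 270.2 and 483 in mean from the oocyte to 4 hpf. The KCP-hit gene (OFUSG05505), a match to a chordin-type modulator, went from 1.04 and 1.09 to 54.5 and 62.7 (4.85 ± 1.04, adjusted p = 0.00208) and reached 5649.8 ± 2025 in the mature larva. Its adjusted p was 0.0789 with a pseudocount of 0.1. No ligand gene was called higher. The INHBB-hit gene (OFUSG17597), an uncalled ligand gene, went from 54.2 and 9.67 to 91 and 132 (2.19 ± 1.61, adjusted p = 0.345). From 4 hpf to elongation the INHBB-hit gene was called higher (log2 difference 4.13 ± 1.61, adjusted p = 0.0437). The BMP7-hit gene (OFUSG23310) went from 4724 and 3538 to 3118 and 2201 (-0.64 ± 0.23, adjusted p = 0.0427), a call lost without coeloblastula replicate 1 (adjusted p = 0.29) or gastrula replicate 2 (adjusted p = 0.307), without the trend (adjusted p = 0.0844) and in the fit of the 4 libraries alone (adjusted p = 0.198). The BMP4-hit gene (OFUSG12159) first appeared at 3 hpf and had values of 6320.5 and 5713 in the coeloblastula and 1672 and 1657 in the gastrula. These did not overlap, and the gene was not called (log2 difference -1.85 ± 0.75, adjusted p = 0.0782). It was called lower with TMM scaling (adjusted p = 0.0483), with a pseudocount of 10 (adjusted p = 0.0116) and in the fit of the 4 libraries alone (adjusted p = 0.0114).

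In the Notch pathway 2 of 6 genes were called higher and none lower, with a median of 1.38, a share near the 36.1% of genes with a name or closest protein. The count depended on the setting. With a pseudocount of 10, 4 were called higher, with TMM scaling 1, without coeloblastula replicate 2 none, and without coeloblastula replicate 1 or gastrula replicate 1 only 1. Notch is a receptor that is activated by Delta ligands on neighbouring cells, and *Hes* genes are its usual targets. *delta* went from 3559 and 3247 to 6427 and 5322 (log2 difference 0.78 ± 0.24, adjusted p = 0.0237), having first risen at 4 hpf, to 2537 ± 190.3. The call was lost under TMM scaling (adjusted p = 0.148), and without coeloblastula replicate 1 (adjusted p = 0.063), coeloblastula replicate 2 (adjusted p = 0.122) or gastrula replicate 1 (adjusted p = 0.153). In the fit of the 4 libraries alone its adjusted p was 0.0808. The HES4B-hit gene (OFUSG23386) rose from 3519.6 and 2833 to 8544 and 6433 (1.23 ± 0.34, adjusted p = 0.0116), also lost without coeloblastula replicate 2 (adjusted p = 0.0925) or gastrula replicate 1 (adjusted p = 0.103). The HES1B-hit gene (OFUSG26267) had values of 1202 and 402 and then 5587 and 4685 and was not called (log2 difference 2.88 ± 1.09, adjusted p = 0.0594), and neither was *notch-like*, at 521 and 349 and then 1619 and 949 (1.54 ± 1.28, adjusted p = 0.411). With a pseudocount of 10 both were called higher (adjusted p = 0.000247 and 0.0281), and in the fit of the 4 libraries alone the HES1B-hit gene was (adjusted p = 0.0235).

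Receptor tyrosine kinase ligands and targets of the kinase ERK had 3 of 9 members called higher and none lower (median 0.99), a share near that of the genes with a name or closest protein. The study found ERK active in the cell it proposes as the likely organiser, and in other cells of this embryo. The ETS2B-hit gene (OFUSG17170), a match to an Ets factor of the kind that ERK phosphorylates, rose from 504 and 465 to 2825 and 4318 (log2 difference 2.85 ± 0.51, adjusted p = 0.000492). The NRG2-hit gene (OFUSG18134), a match to the ErbB ligand neuregulin, went from 236 and 185 to 642 and 785 (1.76 ± 0.25, adjusted p = 7.23e-05) on the sum of its transcripts, whereas its most abundant transcript alone had a log2 difference of -2.05 (adjusted p = 0.383). The VEGFA-hit gene (OFUSG02486) went from 3925 and 1962 to 6460.0 and 4742 (1.00 ± 0.26, adjusted p = 0.00905). Its call was lost under TMM scaling (adjusted p = 0.0502), and when coeloblastula replicate 2 (adjusted p = 0.181) or gastrula replicate 1 was left out (adjusted p = 0.102). The fit of the 4 libraries alone gave it an adjusted p of 0.142. Of the receptor genes, *FGFR* had values of 859 and 542 and then 980.1 and 1881 and was not called (log2 difference 0.99 ± 0.50, adjusted p = 0.157), nor was *VEGFR*.

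Of 62 transcription factor genes in 5 lists, 36 were called higher and 3 lower, with a median log2 difference of 2.79. Among 27 homeobox genes, 18 were called higher and 1, the AWH-hit gene, lower (median 3.00), and 14 to 15 were called higher with 1 library left out. *gsc*, an oral ectoderm marker in this worm, went from 55.2 and 53.8 to 2668 and 2951 (log2 difference 5.66 ± 0.78, adjusted p = 5.58e-05) and had a mean of 2856 ± 301 in the mature larva. *cdx*, a hindgut marker, went from 123 and 41.9 to 2129 and 1481 (4.61 ± 0.70, adjusted p = 0.000134) and peaked later, in the early larva (3879 ± 332). *lhx1/5* went from 30.2 and 69.9 to 794 and 826 (4.11 ± 0.48, adjusted p = 1.22e-05) and *POU3* from 6.26 and 9.66 to 936 and 835 (6.65 ± 1.02, adjusted p = 0.000136). Some homeobox genes had their highest mean in the gastrula. The HMX3-hit gene OFUSG05489 went from 19.8 and 29 to 2481 and 2611 (6.67 ± 0.62, adjusted p = 1.44e-06) and had a mean of 749 ± 68.1 in the mature larva. *rhox* went from 46.7 and 74.8 to 676 and 719.5 (3.54 ± 0.90, adjusted p = 0.00692) and had a mean of 170.2 ± 70.8 at elongation. Between 4 hpf and elongation its log2 difference was 0.70 ± 0.90 (adjusted p = 0.552). The call of *rhox* at the gastrula was lost without coeloblastula replicate 1 (adjusted p = 0.054). The LHX3-hit gene (OFUSG25600) was already present at the coeloblastula, with 1419 and 617, and rose to 9238 and 7087 (3.11 ± 0.52, adjusted p = 0.000291).

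Of 10 fork head genes 4 were called higher and 1 lower, and fewer were called higher without coeloblastula replicate 2. These shares were near the 36.1% and 7.92% of genes with a name or closest protein. The median was 0.09, below the 1.39 of those genes. *foxH*, whose vertebrate relatives act with Smad proteins below Nodal and activin, had its highest mean at the gastrula. It went from 13.6 and 15.1 to 2148 and 1989.9 (log2 difference 7.08 ± 0.90, adjusted p = 2.51e-05), then to 721 ± 491 at elongation, 79.4 ± 67.3 in the early larva and 1.67 ± 0.348 in the mature larva. The FD3-hit gene (OFUSG13716) rose from 363 and 204 to 4714 and 3145 (3.82 ± 0.81, adjusted p = 0.00204) and had a mean of 4184 ± 501 in the mature larva. The FOXF1-hit gene (OFUSG04768), a match to a factor of visceral mesoderm in vertebrates and flies, rose from 5.21 and 1.08 to 61.7 and 68.9 (4.20 ± 1.06, adjusted p = 0.00667) and reached 597 ± 59.2 at elongation, the call at the gastrula being lost without coeloblastula replicate 2 (adjusted p = 0.0772) and with a pseudocount of 0.1 (adjusted p = 0.0709). The FOXB1-hit gene (OFUSG09642) had means of 26.1 ± 0.504 in the oocyte and 7619.8 ± 2174 at 4 hpf, values of 17937 and 15464 in the coeloblastula and 7190.3 and 10228 in the gastrula, and a mean of 386 ± 284 at elongation. Between coeloblastula and gastrula it was not called (log2 difference -0.96 ± 0.81, adjusted p = 0.422), while from 4 hpf to elongation it fell by 4.50 ± 0.81 on the log2 scale (adjusted p = 0.000253). *foxQ2*, an apical marker, had means of 2.0 at 3 hpf and 42.7 ± 41.5 at 4 hpf. It had 2106 and 1036 in the coeloblastula and then 916 and 849, and was not called either (adjusted p = 0.575).

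Among basic helix-loop-helix genes 4 of 8 were called higher and none lower (median 2.53), *hand2* among them. Without coeloblastula replicate 2 or gastrula replicate 1, 2 were called higher. The FER3-hit gene OFUSG04688 was only just detected in the gastrula, at 14.3 and 13.6 against 0 and 1.08 (3.37 ± 0.70, adjusted p = 0.00165), and its mean at elongation was 919 ± 394. *twist*, a trunk mesoderm marker, had values of 8.34 and 38.7 and then 72.4 and 105, was not called (log2 difference 2.20 ± 0.97, adjusted p = 0.104), and had a mean of 1005 ± 449 at elongation. In the T-box list the TBX3-hit gene was called higher and the TBR1-hit gene (OFUSG23228) lower, with 2853 and 2422 and then 1733 and 1478 (-0.72 ± 0.19, adjusted p = 0.0102). The TBR1-hit call was lost without coeloblastula replicate 1 (adjusted p = 0.0894) or gastrula replicate 2 (adjusted p = 0.0737), and in the fit of the 4 libraries alone (adjusted p = 0.12). The TBXT1-hit gene (OFUSG00479), a match to Brachyury, was not called, with 189.8 and 91.3 and then 46.2 and 54.3 (-1.38 ± 1.15, adjusted p = 0.413).

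The 12 other transcription factor genes had the largest median of the 5 lists, 4.78, with 9 called higher and none lower. The GATA3-hit gene (OFUSG06474) went from 69.9 and 82.6 to 2336 and 3344 (log2 difference 5.18 ± 1.28, adjusted p = 0.0058) and the PRDM1-hit gene (OFUSG00459), a match to the repressor Blimp-1, from 99.2 and 39.7 to 3388 and 1953 (5.33 ± 0.56, adjusted p = 4.16e-06). *AP2*, an ectodermal factor in many animals, went from 98.1 and 53.6 to 4699.8 and 4408 (5.95 ± 0.92, adjusted p = 0.000148) and had a mean of 1889.9 ± 264 in the mature larva. Both SCRT1-hit genes, matches to the neural zinc finger factor Scratch, rose, OFUSG04900 from 22.9 and 6.48 to 626 and 554 (5.46 ± 0.78, adjusted p = 7.03e-05) and OFUSG20572 from 12.5 and 3.23 to 327 and 463 (5.69 ± 1.05, adjusted p = 0.000669). The call of OFUSG20572 was lost with a pseudocount of 0.1 (adjusted p = 0.063). The EYA4-hit gene (OFUSG17166), a match to the eyes absent transcriptional cofactor, was present throughout and rose from 361 and 409 to 2482 and 5633 (3.28 ± 0.34, adjusted p = 3.64e-06).

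None of the study's 22 candidate genes for larval territories was called lower, and 15 were called higher. Among genes with a name or closest protein 7.92% were lower and 36.1% higher, and no test set the counts against these shares. Of the 6 mesodermal candidates 5 were called higher, all but *twist*, with a median log2 difference of 6.16. Of the 9 posterior or chaetal candidates 6 were called higher (median 3.38, the value of the uncalled *wnt4*). Of the 6 apical or anterior candidates 3 were called higher (median 2.51). Without coeloblastula replicate 1, 3 of the posterior candidates were called higher. The uncalled apical genes were *six3/6*, *POU4* and *foxQ2*, each of which had risen by the coeloblastula. *six3/6* had a mean of 13.1 at 4 hpf, values of 3666 and 1448 in the coeloblastula and 5977 and 4846 in the gastrula (log2 difference 1.22 ± 0.95, adjusted p = 0.377), and *POU4* had 16 at 4 hpf, then 693 and 470.1 and 1074 and 631 (0.53 ± 0.63, adjusted p = 0.588). With a pseudocount of 10 *six3/6* was called higher (adjusted p = 0.0493), which made 4 apical or anterior candidates. Their differences between 4 hpf and elongation were 8.86 ± 0.95 for *six3/6* (adjusted p = 1.5e-06) and 5.87 ± 0.63 for *POU4* (adjusted p = 1.46e-06). The candidates were picked in the study for their response to drugs or as markers, and the differences between territories were not tested. From RNA-seq of 12 stages the study had already reported that all of them rise when its likely organiser cell is specified, or just after.

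**Figure D5:**
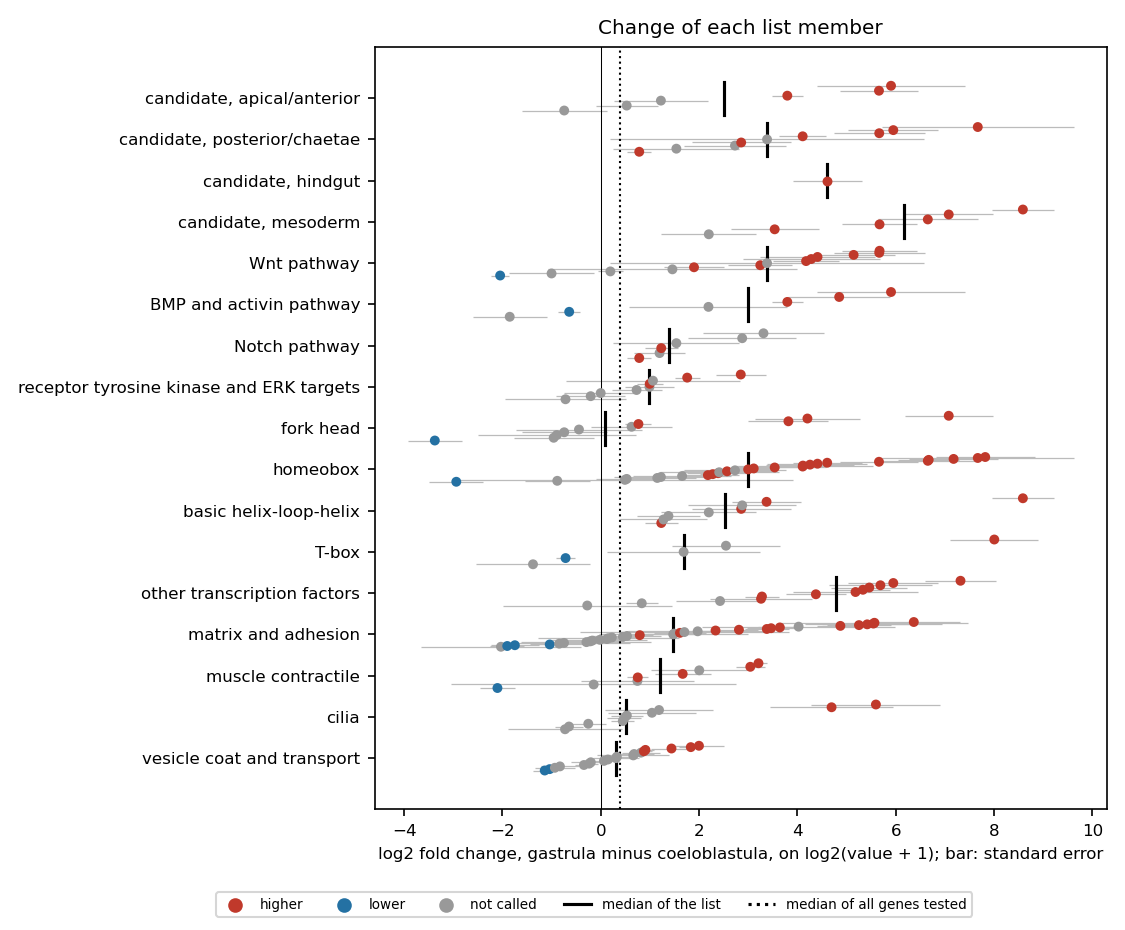
Log2 difference between gastrula and coeloblastula (x axis, bars are standard errors) of each member of the gene lists (y axis), coloured by the limma call. The solid tick is the median of a list and the dotted line the median of all genes tested (0.40). Medians of the mesodermal candidates, the other transcription factors and the Wnt pathway lie to the right of it, and those of the cilia and vesicle genes lie near it. The median of the genes with a name or closest protein, from which the lists come, was 1.39 and is not drawn.

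Matrix and adhesion genes changed in both directions, with 13 of 33 called higher and 3 lower (median 1.47), shares near those of the genes with a name or closest protein. Matches to basement membrane proteins were among the called and the uncalled genes. The NID2-hit gene (OFUSG21956), a match to the basement membrane protein nidogen, went from 2832 and 1151 to 16811 and 20972 (log2 difference 3.38 ± 0.44, adjusted p = 3.35e-05). The COFA1-hit gene (OFUSG04236), a match to a collagen of the basement membrane zone, went from 529 and 381.3 to 4228 and 5839.9 (3.47 ± 0.50, adjusted p = 7.62e-05). The LAMA4-hit gene (OFUSG20588), a match to a laminin chain, had values of 411 and 431 and then 179 and 657 and was not called (log2 difference -0.29 ± 1.32, adjusted p = 0.903). Of 4 PXDN-hit genes, matches to peroxidasin, which crosslinks collagen IV, 3 were called higher. OFUSG05964 went from 8.35 and 15 to 1260.0 and 809 (6.37 ± 0.93, adjusted p = 9.31e-05), OFUSG25551 from 509 and 294 to 3174 and 2335 (2.81 ± 0.39, adjusted p = 5.95e-05) and OFUSG09230 from 25.1 and 16.1 to 1316 and 737 (5.55 ± 1.39, adjusted p = 0.00632). The last call was lost without gastrula replicate 1 (adjusted p = 0.0528) and with a pseudocount of 0.1 (adjusted p = 0.104). The ITA8-hit integrin gene (OFUSG14939) rose from 40.7 and 57.9 to 527 and 726 (3.64 ± 0.44, adjusted p = 1.59e-05), and the SLIT-hit gene (OFUSG06632), a match to the axon guidance ligand, from 261 and 249 to 1126 and 1478 (2.34 ± 0.37, adjusted p = 0.000201). The most abundant transcript of the SLIT-hit gene alone had a larger log2 difference, 6.44, and was not called (adjusted p = 0.0541). A CO6A6-hit gene, OFUSG09179, a match to a collagen VI chain, rose from 39.6 and 23.6 to 1563 and 1173 (5.42 ± 0.93, adjusted p = 0.000348) and was highest at the gastrula.

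The 3 genes of the matrix list called lower were present in the oocyte and had mature larva means above their coeloblastula means. The BGH3-hit gene (OFUSG18570), a match to a secreted fasciclin-domain protein that binds collagen and integrin, went from 6570.4 and 5815 to 2716 and 1005 (log2 difference -1.90 ± 0.34, adjusted p = 0.000532), with 8896 ± 2975 in the oocyte and 35454 ± 7496 in the mature larva. In the fit of the 4 libraries alone none of the 3 was called (adjusted p = 0.0506 for the BGH3-hit gene, 0.13 for OFUSG16522 and 0.128 for OFUSG00836). Another CO6A6-hit gene, OFUSG16522, went from 1467 and 2653 to 1163 and 793 (-1.04 ± 0.28, adjusted p = 0.0111) and had 45936 ± 13309 in the mature larva. The ITA5-hit integrin gene (OFUSG00836) went from 80.4 and 136 to 24.7 and 37.5 (-1.75 ± 0.49, adjusted p = 0.0124). Without coeloblastula replicate 2 neither of the last calls held (adjusted p = 0.183 and 0.123), nor did that of OFUSG16522 without gastrula replicate 2 (adjusted p = 0.116) or that of OFUSG00836 without gastrula replicate 1 (adjusted p = 0.102).

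Of 8 muscle contractile genes, 4 were called higher and 1, the TITIN-hit gene OFUSG15046, lower (median 1.21), with 2 called higher under TMM scaling. Some of them were present from the oocyte on, so the counts do not mark the appearance of differentiated muscle. The TNNI-hit gene (OFUSG08007), a match to troponin I, the inhibitory subunit of the thin filament switch, went from 689 and 710.5 to 5951 and 7047 (log2 difference 3.21 ± 0.17, adjusted p = 1.13e-08). The MYS-hit gene (OFUSG11159), a match to the myosin heavy chain of scallop striated muscle, went from 1005 and 650.2 to 7376 and 6024 (3.04 ± 0.30, adjusted p = 2.07e-06). Both were present from the oocyte on, and their mature larva means were 31474 ± 141 and 218721 ± 9126. The TNNT-hit gene (OFUSG08010), a match to troponin T, went from 12224 and 9812 to 22629 and 15049.9 (0.75 ± 0.21, adjusted p = 0.0138). That call was lost under TMM scaling (adjusted p = 0.111), and when coeloblastula replicate 2 (adjusted p = 0.129) or gastrula replicate 1 was left out (adjusted p = 0.192), and the fit of the 4 libraries alone gave an adjusted p of 0.136.

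The cilia and vesicle lists had medians near the 0.4 of all genes tested. Both medians were below the 1.39 of the genes with a name or closest protein. Of 10 cilia genes 2 were called higher and none lower (median 0.50). Without coeloblastula replicate 1 none was called higher, and without gastrula replicate 1 only 1 was. The TEKT3-hit gene OFUSG07352, a match to a tektin of the axoneme, went from 4.17 and 34.4 to 812 and 527 (log2 difference 5.60 ± 1.31, adjusted p = 0.00411) and had a mean of 25502 ± 965 in the early larva. Without coeloblastula replicate 1 its call was lost (adjusted p = 0.064), as it was with a pseudocount of 0.1 (adjusted p = 0.0791). The TC1DB-hit gene OFUSG16372, a match to a dynein light chain family member, went from 31.2 and 122 to 2392 and 1109 (4.70 ± 1.25, adjusted p = 0.0094), a call lost without coeloblastula replicate 1 (adjusted p = 0.0967) or gastrula replicate 1 (adjusted p = 0.0799). Of 19 genes of vesicle coats and transport, 5 were called higher and 2 lower (median 0.31, and 0.02 with TMM), and 3 were called higher without gastrula replicate 1. The COPZ1-hit gene (OFUSG17693), a match to a subunit of the COPI coat, rose from 1826 and 1796 to 8212 and 5063 (1.83 ± 0.24, adjusted p = 3.44e-05), whereas the COPA-hit gene (OFUSG16893), a match to another subunit of that coat, was not called, with 10718 and 14117 and then 11461 and 9973 (-0.20 ± 0.40, adjusted p = 0.762). The ARF4-hit gene (OFUSG05616), a match to a small GTPase that recruits coats, rose from 7965 and 8556 to 17023 and 13508 (0.88 ± 0.16, adjusted p = 0.000537), a call lost in the fit of the 4 libraries alone (adjusted p = 0.0603). The lower genes were the USO1-hit gene (OFUSG18054), a match to a vesicle tether, which went from 10990.4 and 11002 to 5550.1 and 5150.5 (-1.04 ± 0.15, adjusted p = 6.92e-05), and the NSF-hit gene (OFUSG16169), a match to the ATPase that recycles SNARE proteins, which went from 3063 and 3490.2 to 1515 and 1452 (-1.14 ± 0.23, adjusted p = 0.00157).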

How the data were processed

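The deposited table holds the authors' normalised expression signal, 1 value per transcript and library. The submitters' processing notes name kallisto 0.46.2, DESeq2 1.30.1 and R 3.6. The study names its genome assembly and annotation only by accession, and no coordinates were used. The values are not whole reads, so no count test was run, and depth is an estimate from the value of 1 read in low genes. Summing the 31903 transcripts by gene gave 26966 genes. A gene was tested if 2 or more libraries reached 10 (23934 genes). limma 3.58.1 (R 4.3.3) was run on log2(value + 1) in 1 fit of 24 libraries, with stage as the only factor and the variance following a trend on the mean. The 4 hpf columns are named by number of cells and were matched through the study's text. The 3 hpf columns carry a cell number that no source ties to 3 hpf and were assigned by elimination, no other label being left for them. The ATAC-seq and 3 columns without a matching label were left out. The script was tested on simulated data. Tables and plots were made with Python 3.11.15.

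Among called genes without overlap between stages, the text names the 2 largest rises and the 2 largest falls, the 12 largest rises and the 12 largest falls with a name or closest protein in the study's tables, and members of the gene lists. Names and closest proteins are the study's, and one candidate was taken as *foxH* from its closest protein, a FoxH-type factor. Members and lists were chosen with earlier results of these data known. Alternatives were TMM scaling, no filter, pseudocounts of 0.1 and 10, no trend, the 4 libraries alone, a replicate block, each replicate left out in turn, single transcripts and a log2 threshold of 1.5. No outlier test was made, since each stage has 2 libraries. No sequence is printed, since the annotation tables used here share no identifier with the expression table.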

Additional observations from a re-analysis of the deposited data

How the results depend on the processing

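The number of genes changed between coeloblastula and gastrula, 7053 in the reported fit, lay between 5869 and 9381 under other scaling, filter, pseudocount, trend, block or transcript settings in the common fit, was 4901 with a log2 threshold of 1.5 added, and between 4916 and 5928 with 1 library left out. In the fit of the 4 libraries alone, which has few degrees of freedom, 4254 genes were called, 2754 higher and 1500 lower, and 732 higher genes had their highest mean at the gastrula against 1156 in the reported fit. That last number was 721 to 924 with 1 library left out. With that threshold the lower genes numbered 1397 of 2748. The number of genes changed between 4 hpf and elongation, 11628, lay between 9405 and 13844 under all alternatives run.

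Of 84 named genes that were called, 55 were called in the same direction under all 12 alternatives and 64 whichever library was left out. The alternative of single transcripts gave the NRG2-hit gene (OFUSG18134) a log2 difference of -2.05 (adjusted p = 0.383), the only change of direction among the called genes. It left the MEG10-hit (OFUSG24445, log2 difference -3.33, adjusted p = 0.0581) and SLIT-hit (OFUSG06632, log2 difference 6.44, adjusted p = 0.0541) genes without a call. The LAMA4-hit gene (OFUSG20588), not called in any fit, had log2 differences of -1.225 to 0.6421 with 1 library left out. The cause was not tested.

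Libraries with the same replicate number do not share a named spawning or batch, and the differences between replicates 1 and 2 correlated across genes at 0.314 between coeloblastula and gastrula, and over 0.1 in 57 of 66 pairs of stages. With the replicate number as a block 9381 genes were called, 5726 higher and 3655 lower (13844 between 4 hpf and elongation), and no call of a named gene was lost. With the block *twist* (adjusted p = 0.0368) and the HES1B-hit gene (adjusted p = 0.032) were called higher as well, which made 6 of 6 mesodermal candidates, and 5 of 6 Notch pathway genes were called higher. With 2 libraries a stage, small differences of low genes cannot be resolved at this depth.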

Other observations

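Some genes had a level that followed the replicate number at the stages before the coeloblastula. This was noticed after the values were seen. Before the coeloblastula, 1464 of 23934 genes tested (6.12%) had one replicate above 3 times the other plus 3 in at least 6 of the 7 stages, always with the same replicate on top, replicate 1 in 606 genes and replicate 2 in 858. *wnt4*, the PAM-hit gene and *irxA* were among the genes with the higher level in replicate 2. Of the 1440 genes with a log2 rise over 2 at the gastrula that were not called, 248 (17.2%) were of this kind. Among the 3054 called genes with such a rise, 43 (1.41%) were. A rise that was not called, as for *wnt4*, therefore does not show that the gene was unchanged. Where these genes are of interest, the values of single libraries are more telling than the stage means.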
